A study of Mus musculus with 15 samples.

Results

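The tumour necrosis factor (TNF) superfamily and its receptors are a family of membrane-bound or shed ligands and of receptors with cysteine-rich outer domains. The 40 members described here, of 27174 genes in the table, are the protein-coding rows whose symbol starts with Tnfsf or Tnfrsf and a number, together with Tnf, Lta, Ltb, Ltbr, Cd40, Cd40lg, Cd27, Fas and Fasl. They comprise 16 ligand genes and 24 receptor genes, and Cd70, which the rule also names, was not analysed here. RNA was sequenced from microvessels isolated from brains of adult wild-type mice of strain BL6/57, with 5 groups of 3 libraries and 3 pooled mice per library. The 3 tumour-region groups and the contralateral group were taken 21 days after transplantation of tumour cells of orthotopic glioblastoma (GBM). No day is listed for the sham group. Triple therapy was aflibercept, a decoy receptor for VEGF, with AMG386, a peptibody that binds angiopoietins, and anti-PD1, an antibody against the T cell checkpoint receptor. Dual therapy was aflibercept with AMG386. Untreated tumour came from mice given control IgG, and contralateral microvessels came from the hemisphere without tumour of mice given control IgG. Sham microvessels came from sham-operated healthy mice. The tumour cell line and the doses are not given in the sources used here. No contralateral libraries of treated mice were analysed, and pools of mice hide the spread between single animals.

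Ligands of this family act as trimers and cluster their receptors, which signal through TRAF adaptors to NF-kappa B and MAP kinases. Receptors with a death domain can also recruit FADD and caspase-8. In vessels, TNF itself is known to induce leukocyte adhesion molecules, several members are costimulators of T and B cells, and the receptors TROY (Tnfrsf19) and DR6 (Tnfrsf21) are needed for blood vessel growth in the brain of mice and zebrafish embryos.

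The values are normalised scores per gene, whole numbers that the authors scaled per library. They are not read counts, and their sums per library ran from 11134670 to 15799111. The estimated depth was lowest in sham replicate 2, at 6370000 reads, and highest in triple therapy replicate 3, at 18320000 reads. The 10 endothelial marker genes, Cldn5, Pecam1 and Cdh5 among them, summed to 80137 to 102582 after triple therapy, 89958 to 106560 after dual therapy, 60418 to 82588 in untreated tumour, 98190 to 108072 in contralateral and 99822 to 103327 in sham microvessels. Most of the lower sum of untreated tumour lay in Ptprb, with a mean of 29185 there and 50704 in sham microvessels. Cldn5 had means of 5704 and 5386 in these groups, Cdh5 of 6741 and 7041 and Pecam1 of 7719 and 9818. Markers of neurons and other brain cells were present as well, and the 5 neuron genes summed to 1183 to 2798 in untreated tumour, against 7592 to 9420 in contralateral and 10068 to 13614 in sham microvessels. Mitochondrial ribosomal RNA took 21.5% to 33.2% of the score in the untreated tumour libraries, all 3 above every other library, where it took 9.55% to 17.4%, and its part in the comparisons with untreated tumour was not tested. The highest share was that of untreated tumour replicate 2. Among the 34 members that were tested, dual therapy replicate 2 held the lowest value of its group in 23 and triple therapy replicate 3 in 18, while contralateral replicate 2 held the highest of its group in 18. Untreated tumour replicate 2 and dual therapy replicate 2 are called the libraries that stand apart, and results were also computed without both.

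Divided by the length of the exons in GENCODE M21, Tnfrsf1a had the highest level in untreated tumour, at 424 score units per kilobase, followed by Tnfsf10 at 283, Tnfrsf19 at 259, Ltbr at 220 and Fas at 214 per kilobase. In sham microvessels the order per kilobase was Tnfrsf19 at 453, Fas at 342, Tnfrsf1a at 223, Tnfrsf21 at 181, Tnfsf10 at 170 and Ltbr at 158. These 6 genes encode receptors and 1 ligand that many cell types use. Tnf itself stood at 12.2 per kilobase in untreated tumour and was listed at 0 in every sham library. Of all 40 members, 8 had a score of 100 or more in every library and 19 had under 50 in every library, so much of the family was measured near the limit of this depth.

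**Figure D1:**
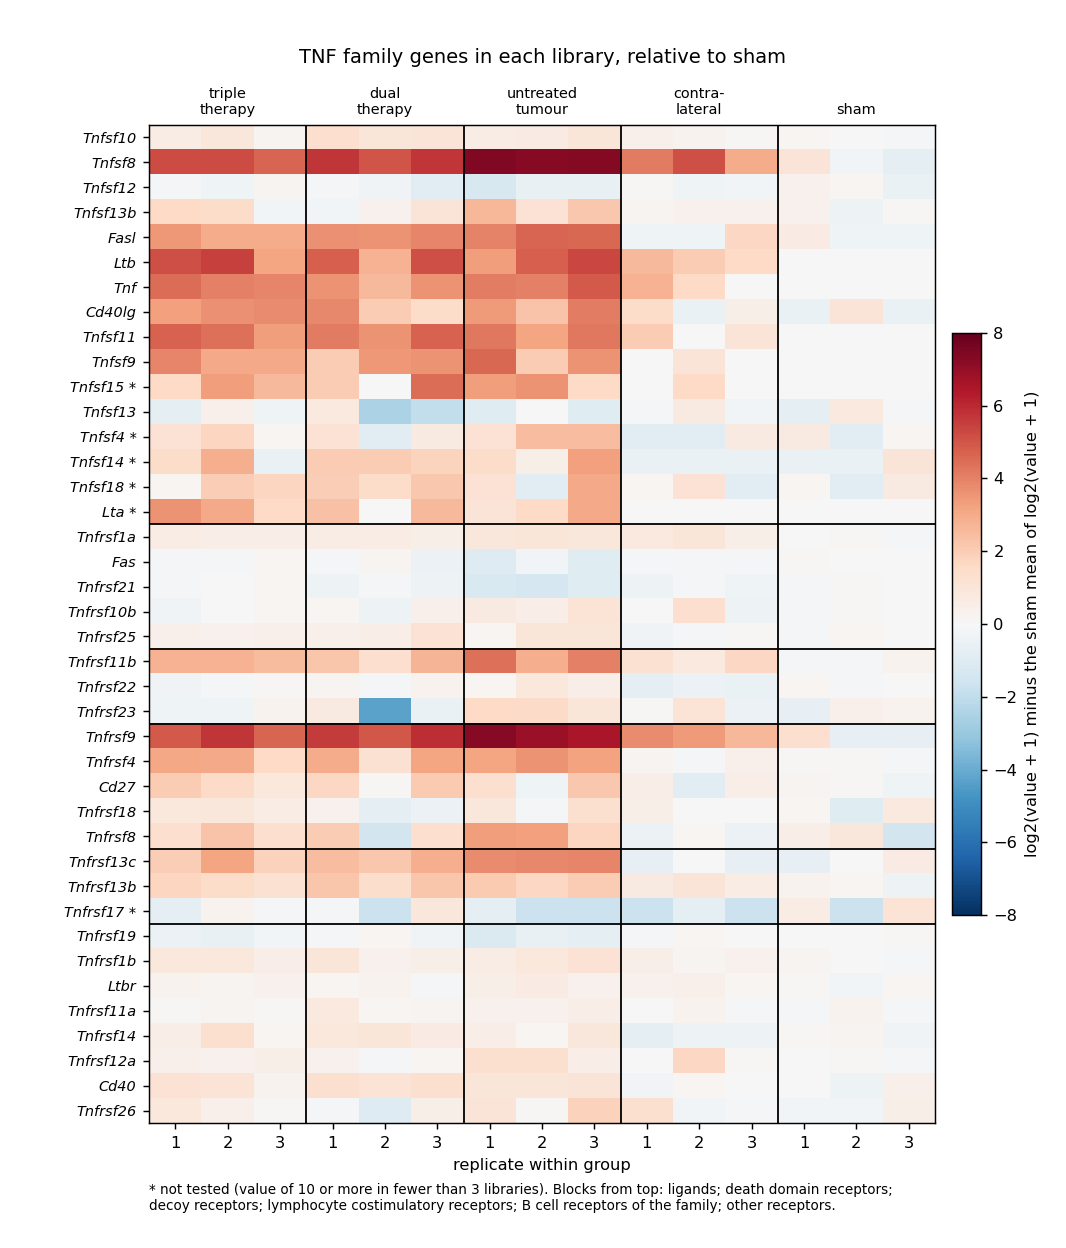
Difference of log2(value + 1) from the sham mean for 40 members (rows, by role) in 15 libraries (columns, by group and replicate); red is higher and blue lower than sham. Tnfsf8 and Tnfrsf9 show the deepest red in the 3 untreated tumour libraries, and Fas, Tnfrsf19 and Tnfrsf21 are blue there.

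A member was tested when its score was at least 10 in at least 3 libraries, which 34 of 40 met. Untreated tumour was set against contralateral and sham microvessels to ask how vessels of the tumour region differ from others. Against contralateral microvessels, 19 of the 34 rose and 3 fell, at an adjusted p below 0.05 over all 19668 genes tested, where 21.1% of all genes rose and 21.4% fell. Their median log2 fold change was 1.04, against 0.01 for all genes. Under endothelial identity scaling, which sets the mean log2 value of the endothelial markers equal in all libraries, the median of all genes moved to 0.33, rises made up 75% of all calls instead of 49.6%, and 23 members rose and 2 fell. This scaling shifts all genes by the mean change of the 10 markers, of which 0 rose and 3 fell in this comparison. Of the 34, 9 reached a score of 10 in no contralateral or sham library, and all 9 of them are among the risen, so that part of the count follows from the filter. They are Fasl, Tnfsf11, Ltb, Tnf, Cd40lg, Tnfsf9, Tnfrsf4, Tnfrsf8 and Tnfrsf13c, and their adjusted p given below carry this limit. Among the other 25 members 10 rose, 3 fell and 12 were not called. Tnfrsf9, among these 10 risen, reached a score of 10 in at most 2 contralateral or sham libraries. It too passed the filter only with tumour-region libraries. Against sham microvessels, 20 of the 34 rose and 4 fell, where 23.3% of all genes rose and 23.3% fell. The same 9 members are all among the risen there, and among the other 25 members 11 rose, 4 fell and 10 were not called. Tnfrsf9 is among these 11 risen as well. Endothelial identity scaling moved the median of all genes there to 0.29, against 0.03, and the share of rises among all calls to 68.4%, against 49.9%, with 25 members risen and 3 fallen. Both comparisons use the same untreated libraries. In bulk RNA, more cells of a type and more RNA per cell cannot be told apart.

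Among the ligands, Tnfsf8 (CD30L; ENSMUSG00000028362, chr4:63831308-63861347, GRCm38), the ligand of CD30, had scores of 126, 129 and 87 after triple therapy, 181, 111 and 186 after dual therapy, 578, 533 and 562 in untreated tumour, 61, 123 and 26 in contralateral and 6, 2 and 1 in sham microvessels. The untreated tumour libraries lay far above all others, contralateral replicate 2 lay among the treated libraries, and every contralateral library lay above every sham library. Tnfsf8 rose in untreated tumour against contralateral (log2 fold change 3.24 ± 0.45, adjusted p = 1.66e-05) and against sham microvessels (log2 fold change 7.33 ± 0.45, adjusted p = 1.72e-09). Fold changes are differences of log2(score + 1), each with its standard error from limma, and those of members near 0 depend on the added 1. The receptor of this ligand, Tnfrsf8 (CD30), was far lower, with 6, 12 and 6 after triple therapy, 10, 0 and 6 after dual therapy, 27, 25 and 8 in untreated tumour, 1, 2 and 1 in contralateral and 3, 4 and 0 in sham microvessels. Tnfrsf8 rose in untreated tumour against contralateral (log2 fold change 3.03 ± 0.86, adjusted p = 0.00811) and sham microvessels (log2 fold change 2.79 ± 0.86, adjusted p = 0.0124), the second with an adjusted p of 0.0037 to 0.0761 over the alternatives, at or above 0.05 without, in turn, untreated tumour replicate 1 (0.0554) or sham replicate 3 (0.0761). Per kilobase of exon, the level of Tnfsf8 in untreated tumour was 146.5 and that of Tnfrsf8 was 5.78.

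The 3 ligand genes that lie side by side on chromosome 17 within the major histocompatibility region were low in all libraries. Tnf (ENSMUSG00000024401, chr17:35199381-35202007), the founding cytokine of the family, had scores of 21, 15 and 14 after triple therapy, 11, 5 and 11 after dual therapy, 16, 15 and 29 in untreated tumour, 6, 2 and 0 in contralateral and 0, 0 and 0 in sham microvessels. The tumour-region libraries lay above the sham libraries without exception, and the untreated ones above all contralateral ones. Tnf rose in untreated tumour against contralateral microvessels (log2 fold change 2.87 ± 0.67, adjusted p = 0.00206) and was called against sham (adjusted p = 3.50e-05), where it was listed at 0. Ltb, a subunit of the membrane-bound lymphotoxin, had 34, 44 and 8 after triple therapy, 27, 6 and 34 after dual therapy, 9, 27 and 39 in untreated tumour, 5, 3 and 2 in contralateral microvessels and 0 in each sham library. Ltb rose against contralateral microvessels (log2 fold change 2.43 ± 0.73, adjusted p = 0.0116), with an adjusted p of 0.0057 to 0.0629 over the alternatives, at or above 0.05 without untreated tumour replicate 3 (0.0629). Lta, which encodes lymphotoxin alpha, reached at most 11, in triple therapy replicate 1, and was not tested.

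Ligands of cytotoxic and helper T cells were also higher in untreated tumour. Fasl, the death ligand of cytotoxic lymphocytes, had 13, 9 and 9 after triple therapy, 15, 14 and 18 after dual therapy, 19, 31 and 29 in untreated tumour, 0, 0 and 3 in contralateral and 1, 0 and 0 in sham microvessels, with no overlap between the tumour region and the rest (log2 fold change 4.08 ± 0.63, adjusted p = 4.41e-05, against contralateral). Cd40lg, the helper T cell ligand of CD40, had 14, 6 and 24 in untreated tumour, 3, 0 and 1 in contralateral and 0, 2 and 0 in sham microvessels (log2 fold change 2.79 ± 0.77, adjusted p = 0.0068, against contralateral). Neither gene exceeded 3 outside the tumour region. Tnfsf11 (RANKL), known for driving osteoclasts and also made by T cells, had 18, 8 and 18 in untreated tumour, against 3, 0 and 1 in contralateral microvessels (log2 fold change 2.89 ± 0.65, adjusted p = 0.00145). Tnfsf9 (4-1BBL), a ligand of antigen-presenting cells, had 23, 3 and 11 in untreated tumour, against 0, 1 and 0 in contralateral microvessels (log2 fold change 3.06 ± 0.76, adjusted p = 0.00325). Sham libraries were listed at 0 for Tnfsf11 and Tnfsf9. Fasl, Cd40lg, Tnfsf11 and Tnfsf9 are among the 9 members that reached a score of 10 in no contralateral or sham library. They were tested only because of tumour-region libraries, so their rises follow from the filter.

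The ligands with broader expression moved less. Tnfsf10 (TRAIL; ENSMUSG00000039304, chr3:27317028-27342427), which can trigger death receptors, was the most abundant ligand, with 1375, 1694 and 1053 after triple therapy, 2248, 1712 and 1829 after dual therapy, 1352, 1400 and 1720 in untreated tumour, 1205, 1070 and 951 in contralateral and 996, 865 and 827 in sham microvessels. It rose in untreated tumour against sham (log2 fold change 0.73 ± 0.16, adjusted p = 8.28e-04) and against contralateral microvessels (log2 fold change 0.47 ± 0.16, adjusted p = 0.0208). The adjusted p against contralateral microvessels was 0.00504 to 0.102 over the alternatives, at or above 0.05 without, in turn, untreated tumour replicate 3 (0.102) or contralateral replicate 3 (0.0955). Tnfsf13b (BAFF), a survival factor for B cells, had 58, 20 and 41 in untreated tumour, against 10, 11 and 11 in contralateral and 11, 6 and 9 in sham microvessels. It rose against contralateral microvessels (log2 fold change 1.68 ± 0.53, adjusted p = 0.0163), with an adjusted p of 0.00595 to 0.088 over the alternatives, at or above 0.05 without, in turn, untreated tumour replicate 1 (0.088) or untreated tumour replicate 3 (0.05). Tnfsf12 (TWEAK), a ligand that acts on injured tissue and vessels, went the other way, with 45, 73 and 73 in untreated tumour, 118, 87 and 95 in contralateral and 143, 125 and 79 in sham microvessels. It fell against sham (log2 fold change -0.84 ± 0.27, adjusted p = 0.0161), where the adjusted p was 0.00517 to 0.0928 over the alternatives, at or above 0.05 with endothelial identity scaling (0.0928) and without, in turn, untreated tumour replicate 1, sham replicate 1 or sham replicate 2 (0.0599 to 0.0901). Against contralateral microvessels it was not called (log2 fold change -0.67 ± 0.27, adjusted p = 0.0559), with an adjusted p of 0.0173 to 0.334 over the alternatives, below 0.05 with quantile normalisation (0.0173) and without, in turn, both libraries that stand apart (0.0442) or untreated tumour replicate 2 (0.0428). Its exons, like those of Tnfsf13 (APRIL), overlap the read-through gene Tnfsfm13 on the same strand, so the split of reads among the 3 is uncertain. Tnfsf13 had 1 to 19 over all libraries and was called in no comparison.

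**Figure D2:**
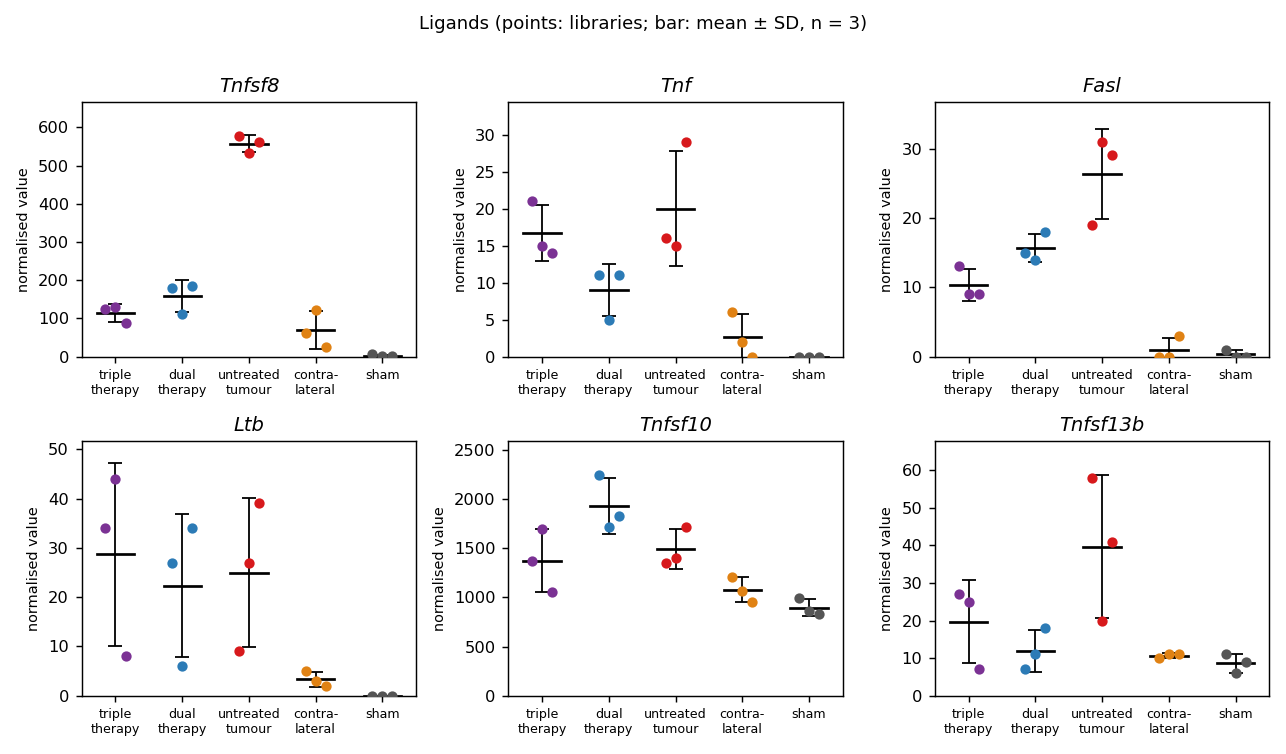
Normalised value of 6 ligand genes in each library (points) with mean ± SD (n = 3) by group, on linear axes from 0. Tnfsf8 lies at 533 to 578 in untreated tumour, above the 87 to 186 of the treated libraries, and Tnf is listed at 0 in the 3 sham libraries.

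Among receptors of T cell costimulation, Tnfrsf9 (4-1BB; ENSMUSG00000028965, chr4:150920155-150946102), which activated T cells and some vessels express, moved most. Its scores were 46, 82 and 39 after triple therapy, 75, 49 and 96 after dual therapy, 246, 187 and 148 in untreated tumour, 21, 16 and 9 in contralateral and 3, 0 and 0 in sham microvessels. As for Tnfsf8, the untreated libraries lay above all others and every contralateral library above every sham library. Tnfrsf9 rose in untreated tumour against contralateral (log2 fold change 3.62 ± 0.50, adjusted p = 1.43e-05) and sham microvessels (log2 fold change 6.91 ± 0.50, adjusted p = 7.26e-09). Tnfrsf4 (OX40), a receptor of activated T cells, had 64, 62 and 22 after triple therapy, 58, 17 and 68 after dual therapy, 68, 90 and 70 in untreated tumour, 8, 6 and 9 in contralateral and 7, 7 and 6 in sham microvessels, and rose against contralateral microvessels (log2 fold change 3.16 ± 0.48, adjusted p = 4.09e-05). Its ligand gene Tnfsf4 (OX40L) never exceeded 9 and was not tested. Cd27, a costimulatory receptor of T and B cells, was not called against contralateral microvessels (log2 fold change 1.01 ± 0.62, adjusted p = 0.202), with 27, 8 and 49 in untreated tumour and 15, 5 and 15 in contralateral microvessels. Untreated replicate 2 was the low library there, and the adjusted p was 0.0111 to 0.613 over the alternatives, below 0.05 without, in turn, both libraries that stand apart (0.0111) or untreated tumour replicate 2 (0.0281). Tnfrsf18 (GITR), a receptor of regulatory T cells, had 28, 13 and 36 in untreated tumour and 20, 15 and 14 in contralateral microvessels, which overlap (adjusted p = 0.413), and its exons overlap another gene on the other strand.

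Promoters were searched because members rose together. RefSeq promoter sequences on GRCm38.p6 matched 31 of the 40 members, with 35 starts, and the 250 bases before each start were searched on both strands. The kappa B consensus, the binding motif of NF-kappa B, was found in 3 of the 35, which is 8.57%, against 3.9% of all 32851 promoters. The 3 belong to Tnfrsf9, Tnfrsf8 and Ltb, and are printed 5′ to 3′ with the matching letters in capitals. In Tnfrsf9, at the second of its 2 RefSeq starts, the capitals hold 2 overlapping matches, and no match overlaps one of the other motifs searched.
Tnfrsf9 (chr4:150927749-150927998, plus strand): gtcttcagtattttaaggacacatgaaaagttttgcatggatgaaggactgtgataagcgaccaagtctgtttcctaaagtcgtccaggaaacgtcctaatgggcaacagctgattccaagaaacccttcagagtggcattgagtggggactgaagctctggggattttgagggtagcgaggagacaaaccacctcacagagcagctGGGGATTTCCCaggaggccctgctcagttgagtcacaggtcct
Tnfrsf8 (chr4:145315165-145315414, minus strand): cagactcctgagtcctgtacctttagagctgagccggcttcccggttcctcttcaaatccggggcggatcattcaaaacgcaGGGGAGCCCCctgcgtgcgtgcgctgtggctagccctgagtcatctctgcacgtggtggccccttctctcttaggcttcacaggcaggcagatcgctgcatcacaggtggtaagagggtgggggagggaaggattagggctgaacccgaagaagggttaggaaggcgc
Ltb (chr17:35194257-35194506, plus strand): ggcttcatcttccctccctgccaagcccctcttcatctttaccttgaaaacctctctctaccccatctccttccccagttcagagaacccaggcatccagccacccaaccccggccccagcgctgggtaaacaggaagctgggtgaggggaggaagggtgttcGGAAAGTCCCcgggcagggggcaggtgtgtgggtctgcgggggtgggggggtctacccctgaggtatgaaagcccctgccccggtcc
The STAT motif TTCNNNGAA was found in 8 of the 35 member promoters, 22.9%, against 7.02% of all promoters, and the AP-1 motif TGANTCA in 6, 17.1%, against 6.75%. In untreated tumour against contralateral microvessels, all 3 genes with a kappa B match rose, as did 19 of the 34 tested members. Tnfrsf8 and Ltb are among the 9 members that reached a score of 10 in no contralateral or sham library. All 9 of those rose, so these 2 rises follow from the filter. Tnfrsf9 reached a score of 10 in at most 2 such libraries and also passed the filter only with tumour-region libraries. Of the genes with a STAT match Ltb, Tnfrsf1b and Tnfrsf9 rose, Fas fell, Tnfrsf18, Tnfrsf1a and Tnfrsf25 were not called and Lta was not tested. Of those with an AP-1 match Tnfrsf8, Tnfrsf9 and Tnfsf13b rose, Fas fell, Tnfsf13 was not called and Tnfsf14 was not tested. A match describes letters in this window and is not a measured binding site.

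B cell receptors of the family and CD40 were higher in untreated tumour too. Tnfrsf13c (BAFFR), which carries the BAFF survival signal of B cells, had 11, 27 and 10 after triple therapy, 16, 13 and 22 after dual therapy, 42, 43 and 46 in untreated tumour, 1, 2 and 1 in contralateral and 1, 2 and 4 in sham microvessels. The untreated libraries differed little among themselves and did not overlap any other group (log2 fold change 4.29 ± 0.52, adjusted p = 3.81e-06, against contralateral). Tnfrsf13b (TACI), a second receptor for BAFF and APRIL, had 38, 28 and 36 in untreated tumour, 14, 18 and 13 in contralateral and 10, 9 and 6 in sham microvessels, and rose against contralateral microvessels (log2 fold change 1.13 ± 0.37, adjusted p = 0.0188). The adjusted p was 0.01 to 0.0629 over the alternatives, at or above 0.05 with quantile normalisation (0.0579) and without, in turn, untreated tumour replicate 1, untreated tumour replicate 3, contralateral replicate 1 or contralateral replicate 3 (0.0517 to 0.0629). Tnfrsf17 (BCMA), the receptor of plasma cells, reached at most 6 and was not tested. Cd40 (ENSMUSG00000017652, chr2:165055627-165072948), a receptor of B cells, macrophages and activated endothelium, had 156, 152 and 85 after triple therapy, 174, 149 and 171 after dual therapy, 137, 139 and 147 in untreated tumour, 59, 79 and 68 in contralateral and 71, 52 and 94 in sham microvessels. It rose in untreated tumour against contralateral (log2 fold change 1.04 ± 0.24, adjusted p = 0.00215) and sham microvessels (log2 fold change 0.99 ± 0.24, adjusted p = 0.00257).

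The receptors of TNF and lymphotoxin had scores above 100 in every library. Tnfrsf1a (TNFR1; ENSMUSG00000030341, chr6:125349723-125362484), the death domain receptor of TNF, had 875, 832 and 824 after triple therapy, 879, 865 and 796 after dual therapy, 1079, 1142 and 1074 in untreated tumour, 1003, 1128 and 800 in contralateral and 597, 614 and 524 in sham microvessels. Here the contralateral libraries were close to the untreated tumour libraries and overlapped them (log2 fold change 0.18 ± 0.12, adjusted p = 0.221), and the sham libraries were the lowest. The adjusted p of Tnfrsf1a against contralateral microvessels was 0.00702 to 0.784 over the alternatives, below 0.05 with endothelial identity scaling (0.00702) or quantile normalisation (0.0399). It rose against sham microvessels (log2 fold change 0.93 ± 0.12, adjusted p = 3.46e-06). Tnfrsf1b (TNFR2), which lacks a death domain, had 510, 588 and 745 in untreated tumour, 458, 381 and 430 in contralateral and 383, 322 and 296 in sham microvessels. It rose against sham (log2 fold change 0.87 ± 0.17, adjusted p = 3.91e-04) and against contralateral microvessels (log2 fold change 0.52 ± 0.17, adjusted p = 0.0189), the second with an adjusted p of 0.00479 to 0.109 over the alternatives, at or above 0.05 without, in turn, untreated tumour replicate 3 (0.109) or contralateral replicate 2 (0.0715). Ltbr, the lymphotoxin beta receptor, had 502, 572 and 478 in untreated tumour, 464, 481 and 409 in contralateral and 394, 316 and 407 in sham microvessels and rose against sham (log2 fold change 0.48 ± 0.13, adjusted p = 0.00613). Against contralateral microvessels its libraries overlapped, and the adjusted p was 0.00943 to 0.54 over the alternatives, below 0.05 with endothelial identity scaling (0.00943).

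Decoy receptors bind ligands without signalling death. Tnfrsf11b (osteoprotegerin; ENSMUSG00000063727, chr15:54250619-54278484), a soluble decoy for RANKL and TRAIL, had 60, 60 and 50 after triple therapy, 40, 22 and 57 after dual therapy, 191, 67 and 147 in untreated tumour, 20, 14 and 27 in contralateral and 7, 7 and 10 in sham microvessels. No tumour-region group overlapped the sham libraries, and untreated tumour rose against contralateral (log2 fold change 2.59 ± 0.41, adjusted p = 5.44e-05) and sham microvessels (log2 fold change 3.81 ± 0.41, adjusted p = 4.94e-07). Tnfrsf22, a decoy for TRAIL in the mouse, had 88, 145 and 114 in untreated tumour, 46, 58 and 54 in contralateral and 87, 73 and 78 in sham microvessels. It rose against contralateral (log2 fold change 1.10 ± 0.23, adjusted p = 7.17e-04) but was not called against sham microvessels (log2 fold change 0.51 ± 0.23, adjusted p = 0.0703), with an adjusted p of 0.0169 to 0.261 over the alternatives, below 0.05 with endothelial identity scaling (0.0169) and without untreated tumour replicate 1 (0.026). Its neighbour Tnfrsf23, the other mouse TRAIL decoy, had 57, 54 and 37 in untreated tumour and 19, 39 and 13 in contralateral microvessels and was not called (adjusted p = 0.28). Tnfrsf22, Tnfrsf23 and Tnfrsf26 lie together on chromosome 7 and resemble each other, so reads could be split among them, and exons of Tnfrsf23 and Tnfrsf26 overlap a gene on the other strand. Tnfrsf26, which has no known ligand, had 6 to 49 over all libraries and was called in no comparison.

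**Figure D3:**
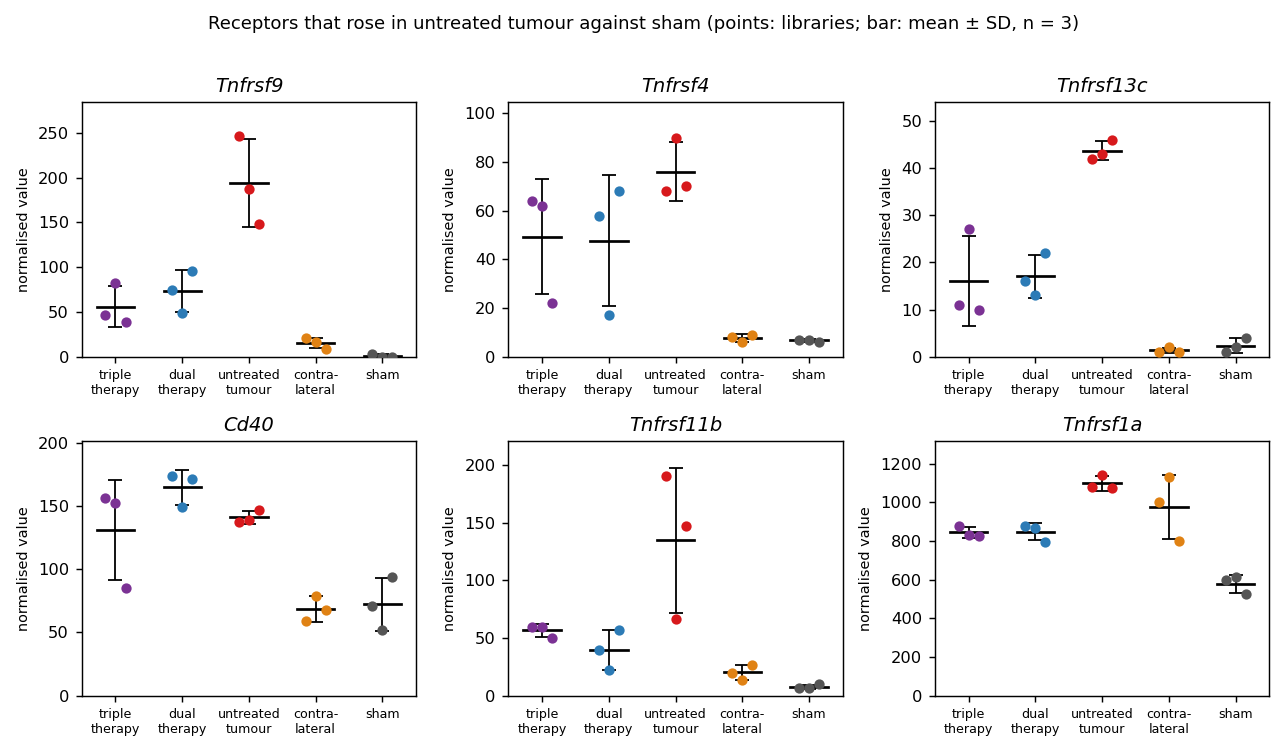
Normalised value of 6 receptor genes that rose in untreated tumour against sham, in each library (points) with mean ± SD (n = 3) by group, on linear axes from 0. Tnfrsf9 lies at 148 to 246 in untreated tumour, and the contralateral libraries of Tnfrsf1a, at 800 to 1128, lie above the sham libraries, at 524 to 614.

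A few receptors fell in untreated tumour, all of them abundant in sham microvessels. Tnfrsf21 (DR6; ENSMUSG00000023915, chr17:43016555-43089188), a death domain receptor of neurons and brain endothelium, had 695, 758 and 825 after triple therapy, 552, 660 and 552 after dual therapy, 324, 293 and 384 in untreated tumour, 553, 662 and 589 in contralateral and 700, 791 and 741 in sham microvessels. The untreated libraries were the lowest without overlap, and Tnfrsf21 fell against contralateral (log2 fold change -0.85 ± 0.12, adjusted p = 2.59e-05) and sham microvessels (log2 fold change -1.16 ± 0.12, adjusted p = 5.30e-07). Tnfrsf19 (TROY; ENSMUSG00000060548, chr14:60963875-61046490), a receptor also made by astrocytes and glial progenitors, had 1568, 1437 and 1876 after triple therapy, 1930, 2341 and 1799 after dual therapy, 947, 1437 and 1304 in untreated tumour, 2039, 2376 and 2181 in contralateral and 2068, 2121 and 2252 in sham microvessels. It fell in untreated tumour against contralateral (log2 fold change -0.86 ± 0.14, adjusted p = 9.72e-05) and sham microvessels (log2 fold change -0.83 ± 0.14, adjusted p = 1.07e-04). Fas, the receptor of Fas ligand, had 669, 656 and 771 after triple therapy, 635, 825 and 519 after dual therapy, 346, 614 and 362 in untreated tumour, 641, 667 and 637 in contralateral and 759, 675 and 681 in sham microvessels. Untreated replicate 2 lay closer to the other groups than its 2 companions did. Fas fell against sham (log2 fold change -0.73 ± 0.18, adjusted p = 0.00316) and against contralateral microvessels (log2 fold change -0.61 ± 0.18, adjusted p = 0.0119). The adjusted p against contralateral microvessels was 2.52e-05 to 0.155 over the alternatives, at or above 0.05 with endothelial identity scaling (0.155) and without, in turn, untreated tumour replicate 1 (0.0699) or untreated tumour replicate 3 (0.0618). Markers of several cell types fell with these genes in untreated tumour against contralateral microvessels: 3 of 10 of endothelium, 6 of 7 of pericytes, 5 of 5 of neurons, 2 of 5 of astrocytes and 3 of 5 of fibroblasts, among which 1 other rose. Of all genes, 21.4% fell in that comparison. The astrocyte markers summed to 14898 to 15817 in untreated tumour, against 32474 to 42332 in contralateral microvessels. Slc1a2 made up most of these sums, with a mean of 9589 in untreated tumour and 30193 in contralateral microvessels. Gja1 had means of 3651 and 4118, and Gfap alone went the other way, with means of 1384 and 1000. The part of these cell types in the result was not tested.

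**Figure D4:**
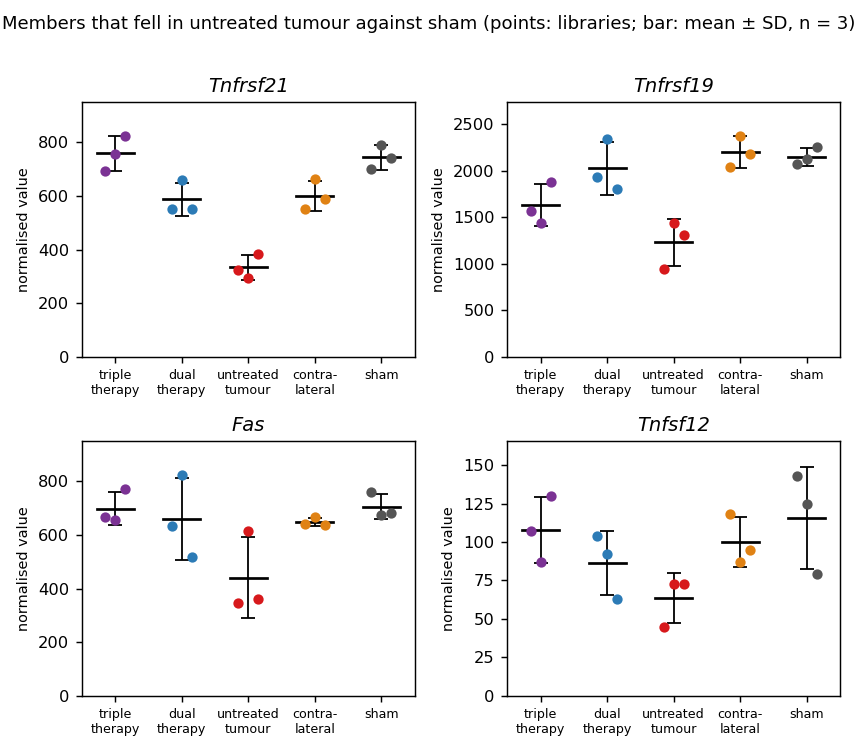
Normalised value of Tnfrsf21, Tnfrsf19, Fas and Tnfsf12 in each library (points) with mean ± SD (n = 3) by group, on linear axes from 0. Tnfrsf21 lies at 695 to 825 after triple therapy, 552 to 660 after dual therapy and 293 to 384 in untreated tumour.

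Of the remaining receptors, 1 was called against contralateral microvessels. Tnfrsf14 (HVEM), a partner of both activating and inhibitory ligands on leukocytes, had 167, 131 and 226 in untreated tumour, 70, 90 and 88 in contralateral and 123, 138 and 96 in sham microvessels, and rose against contralateral (log2 fold change 1.04 ± 0.25, adjusted p = 0.00273). Against sham, which was higher than contralateral, it was not called (log2 fold change 0.53 ± 0.25, adjusted p = 0.0944), with an adjusted p of 0.0347 to 0.35 over the alternatives, below 0.05 with endothelial identity scaling (0.0394) and without, in turn, both libraries that stand apart (0.0368) or untreated tumour replicate 2 (0.0347). Its ligand gene Tnfsf14 (LIGHT) reached at most 13 and was not tested. Contralateral replicate 2 was the high library for Tnfrsf12a and Tnfrsf10b. Tnfrsf12a (Fn14), the inducible receptor of TWEAK, had 195, 202 and 119 in untreated tumour and 79, 261 and 85 in contralateral microvessels (log2 fold change 0.47 ± 0.33, adjusted p = 0.271), with an adjusted p of 0.00263 to 0.744 over the alternatives, below 0.05 without contralateral replicate 2 (0.00263). Against sham microvessels, at 83, 87 and 74, Tnfrsf12a rose (log2 fold change 1.04 ± 0.33, adjusted p = 0.0153), with an adjusted p of 0.00276 to 0.0563 over the alternatives, at or above 0.05 without, in turn, both libraries that stand apart, untreated tumour replicate 1, untreated tumour replicate 2 or sham replicate 3 (0.0508 to 0.0563). Tnfrsf10b (DR5), the TRAIL death receptor of the mouse, had 115, 102 and 149 in untreated tumour and 71, 175 and 53 in contralateral microvessels (log2 fold change 0.46 ± 0.33, adjusted p = 0.281), with an adjusted p of 0.0105 to 0.826 over the alternatives, below 0.05 without contralateral replicate 2 (0.0105). Tnfrsf11a (RANK) was not called in either comparison (log2 fold change 0.37 ± 0.17, adjusted p = 0.0888, against contralateral), with 280, 288 and 316 in untreated tumour and 217, 266 and 202 in contralateral microvessels. Its adjusted p was 0.0116 to 0.259 over the alternatives, below 0.05 with endothelial identity scaling (0.0116) and without contralateral replicate 2 (0.0473). Tnfrsf25 (DR3), a death domain receptor of T cells, had 26, 47 and 47 in untreated tumour and 19, 21 and 25 in contralateral microvessels and lay at the limit (log2 fold change 0.81 ± 0.32, adjusted p = 0.0503), with an adjusted p of 0.0153 to 0.226 over the alternatives, below 0.05 with pseudocount 5 (0.0472) or endothelial identity scaling (0.0153) and without untreated tumour replicate 1 (0.0166). Its ligand gene Tnfsf15 (TL1A) reached 21 in dual therapy replicate 3, and Tnfsf18, the ligand gene of GITR, reached 14 in untreated tumour replicate 3. Neither ligand was tested.

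Contralateral and sham microvessels were compared to ask whether the family differs outside the tumour region. Tnfsf8 (log2 fold change 4.09 ± 0.45, adjusted p = 3.62e-04), Tnfrsf9 (log2 fold change 3.29 ± 0.50, adjusted p = 0.00698) and Tnfrsf1a (log2 fold change 0.74 ± 0.12, adjusted p = 0.00776) rose, and no member fell. The 3 called are 8.82% of the 34 tested, against 0.432% of all genes. Their libraries, given above, did not overlap between the groups, as was so with contralateral higher for 8.5% of all genes. Contralateral replicate 2 had the highest Tnfsf8 and Tnfrsf1a scores, but 3 members were called whichever of the 6 libraries was left out, and 2 when only these 6 libraries were fitted, where Tnfrsf9 did not reach a score of 10 in 3 libraries and was not tested. The share of rises among all calls of this comparison was 58.8%, against 70.7% with endothelial identity scaling, 80.7% with quantile normalisation and 23% with only these 6 libraries, and no member fell under any of the 3. In limma, 10 of the 34 had an unadjusted p below 0.05, as had 11.9% of all genes. Among those not called, Tnfrsf21 had 553, 662 and 589 in contralateral and 700, 791 and 741 in sham microvessels (log2 fold change -0.31 ± 0.12, adjusted p = 0.324). Of the 12 T and NK cell marker genes none was called in this comparison, and they summed to 64 to 159 in contralateral and 70 to 120 in sham microvessels. Among the macrophage and monocyte markers 1 of 10 rose, and their sum was 4315 to 4770 in contralateral and 3951 to 4263 in sham microvessels. The part of other cells in the 3 calls was not tested.

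Triple therapy was compared with untreated tumour to ask how treatment changed vessels of the tumour region. In the family 4 members rose and 6 fell, where 17.2% of all genes rose and 15% fell, 32.2% in either direction. Tnfsf8, whose libraries did not overlap, fell most (log2 fold change -2.30 ± 0.45, adjusted p = 8.50e-04), and Tnfrsf9 fell as well (log2 fold change -1.82 ± 0.50, adjusted p = 0.00917). Tnfrsf21 rose to 695, 758 and 825, above every untreated library (log2 fold change 1.19 ± 0.12, adjusted p = 3.03e-06), and Fas rose (log2 fold change 0.71 ± 0.18, adjusted p = 0.00618). Tnfrsf1a fell (log2 fold change -0.38 ± 0.12, adjusted p = 0.018), with an adjusted p of 0.00258 to 0.0589 over the alternatives, at or above 0.05 without triple therapy replicate 3 (0.0589). Of the 5 death domain receptors tested, Tnfrsf21 and Fas rose, Tnfrsf1a fell and 2 were not called. The 5 calls of this comparison not yet named were each lost under several alternatives.

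The B cell receptor Tnfrsf13c fell (log2 fold change -1.53 ± 0.52, adjusted p = 0.0318), with an adjusted p of 0.00653 to 0.132 over the alternatives, at or above 0.05 with no filter on low values (0.0538) or quantile normalisation (0.0801) and without, in turn, both libraries that stand apart, triple therapy replicate 1, triple therapy replicate 3, untreated tumour replicate 1, untreated tumour replicate 2 or untreated tumour replicate 3 (0.0593 to 0.132). Tnfrsf11b fell (log2 fold change -1.12 ± 0.41, adjusted p = 0.0427), with an adjusted p of 0.00231 to 0.202 over the alternatives, at or above 0.05 with no filter on low values, endothelial identity scaling or quantile normalisation (0.056 to 0.0588) and without, in turn, triple therapy replicate 1, triple therapy replicate 2, triple therapy replicate 3, untreated tumour replicate 1 or untreated tumour replicate 3 (0.0772 to 0.202). The decoy Tnfrsf22, next to Tnfrsf23, fell (log2 fold change -0.60 ± 0.23, adjusted p = 0.0481), with an adjusted p of 0.0217 to 0.181 over the alternatives, at or above 0.05 with no filter on low values, quantile normalisation or only the libraries compared (0.0666 to 0.145) and without, in turn, both libraries that stand apart, triple therapy replicate 1, triple therapy replicate 2, triple therapy replicate 3, untreated tumour replicate 2 or untreated tumour replicate 3 (0.0572 to 0.181). In that fall, every triple therapy library, at 66, 73 and 85, lay below every untreated one, at 88, 145 and 114. Tnfrsf19 rose (log2 fold change 0.42 ± 0.14, adjusted p = 0.0312), with an adjusted p of 0.00556 to 0.185 over the alternatives, at or above 0.05 with endothelial identity scaling, quantile normalisation or only the libraries compared (0.0825 to 0.0854) and without, in turn, triple therapy replicate 1, triple therapy replicate 3 or untreated tumour replicate 1 (0.0601 to 0.185). Tnfsf12 rose (log2 fold change 0.77 ± 0.27, adjusted p = 0.0371), with an adjusted p of 0.0169 to 0.174 over the alternatives, at or above 0.05 with endothelial identity scaling (0.099) or only the libraries compared (0.0538) and without, in turn, triple therapy replicate 1, triple therapy replicate 3 or untreated tumour replicate 1 (0.0858 to 0.174). Members called numbered 5 without triple therapy replicate 1, 4 without triple therapy replicate 3 and 6 without untreated tumour replicate 1. With endothelial identity scaling, which moved the median of all genes to -0.16 and the share of rises among all calls to 40.1%, against 53.5%, 2 rose and 6 fell, with quantile normalisation 3 rose and 3 fell, and with only the 6 libraries compared 2 rose and 8 fell.

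Dual therapy was compared with untreated tumour in the same way and shares its untreated libraries. In this comparison 3 members rose and 6 fell, where 12.1% of all genes rose and 10.2% fell, 22.3% in either direction. Tnfsf8 fell (log2 fold change -1.84 ± 0.45, adjusted p = 0.00738), with an adjusted p of 5.24e-04 to 0.0507 over the alternatives, at or above 0.05 without both libraries that stand apart (0.0507). Tnfrsf11b fell, with scores of 40, 22 and 57 after dual therapy and 191, 67 and 147 in untreated tumour (log2 fold change -1.71 ± 0.41, adjusted p = 0.00582). Tnfrsf21 (log2 fold change 0.82 ± 0.12, adjusted p = 2.31e-04) and Tnfrsf19 (log2 fold change 0.73 ± 0.14, adjusted p = 0.00152) rose, and both had higher scores in all dual therapy libraries than in any untreated one. Fas rose (log2 fold change 0.61 ± 0.18, adjusted p = 0.0234), with an adjusted p of 5.97e-04 to 0.127 over the alternatives, at or above 0.05 with endothelial identity scaling (0.126) or only the libraries compared (0.113) and without, in turn, dual therapy replicate 2, untreated tumour replicate 1 or untreated tumour replicate 3 (0.0951 to 0.127). The remaining 4 calls, all falls, were likewise lost under some alternatives.

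Tnfrsf9 fell (log2 fold change -1.41 ± 0.50, adjusted p = 0.0499), with an adjusted p of 0.00786 to 0.207 over the alternatives, at or above 0.05 with no filter on low values (0.0599) and without, in turn, both libraries that stand apart, dual therapy replicate 1, dual therapy replicate 2, dual therapy replicate 3, untreated tumour replicate 1, untreated tumour replicate 2 or untreated tumour replicate 3 (0.0553 to 0.207). Tnfrsf1a fell (log2 fold change -0.38 ± 0.12, adjusted p = 0.0269), with an adjusted p of 0.00421 to 0.0887 over the alternatives, at or above 0.05 with only the libraries compared (0.0717) and without, in turn, both libraries that stand apart, dual therapy replicate 2, dual therapy replicate 3, untreated tumour replicate 1 or untreated tumour replicate 2 (0.0527 to 0.0887). Tnfsf13b fell (log2 fold change -1.61 ± 0.53, adjusted p = 0.0369), with an adjusted p of 0.0142 to 0.166 over the alternatives, at or above 0.05 with no filter on low values (0.0525) or only the libraries compared (0.0788) and without, in turn, dual therapy replicate 1, dual therapy replicate 2, untreated tumour replicate 1 or untreated tumour replicate 3 (0.0791 to 0.166). Tnfrsf23 fell, with 30, 0 and 12 after dual therapy and 57, 54 and 37 in untreated tumour (log2 fold change -2.74 ± 0.82, adjusted p = 0.0226), with an adjusted p of 0.00262 to 0.142 over the alternatives, at or above 0.05 with only the libraries compared (0.0943) and without, in turn, both libraries that stand apart, dual therapy replicate 2 or untreated tumour replicate 1 (0.0711 to 0.142). Members called numbered 4 without dual therapy replicate 2, 4 without untreated tumour replicate 1 and 5 without both libraries that stand apart. With endothelial identity scaling, which moved the median of all genes to -0.27 and the share of rises among all calls to 18.6%, against 54.3%, 2 rose and 9 fell. The markers used for this scaling were not constant here, as 3 of 10 rose and 0 fell. Neuron markers rose in 5 of 5 cases after triple and 4 of 5 after dual therapy against untreated tumour, and pericyte markers in 6 of 7 and 4 of 7. Astrocyte markers rose in 2 of 5, fibroblast markers in 3 of 5 and endothelial markers in 3 of 10 cases in each comparison, with 1 endothelial marker falling after triple therapy. Of all genes, 17.2% rose after triple and 12.1% after dual therapy, and 15% and 10.2% fell. All 5 proliferation markers fell in both, and of 2 neutrophil markers both fell after triple and 1 after dual therapy. Their part in the changes of the members was not tested.

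The T cell members were not called in either treated group against untreated tumour, apart from Tnfrsf9. Fasl had a log2 fold change of -1.26 ± 0.63 after triple therapy (adjusted p = 0.136), with libraries at 13, 9 and 9 below all untreated ones. Its adjusted p was 0.0221 to 0.271 over the alternatives, below 0.05 with pseudocount 5 (0.0221) or only the libraries compared (0.0432). Tnfrsf4 (log2 fold change -0.75 ± 0.48, adjusted p = 0.252) and Cd27 (log2 fold change 0.42 ± 0.62, adjusted p = 0.64) were not called after triple therapy, nor was Tnf (log2 fold change -0.21 ± 0.67, adjusted p = 0.843). After dual therapy the values were -0.87 ± 0.48 for Tnfrsf4 (adjusted p = 0.212) and -1.08 ± 0.67 for Tnf (adjusted p = 0.269). Cd40 was not called in either. The 12 T and NK cell markers summed to 557 to 994 after triple therapy, 586 to 1066 after dual therapy and 741 to 1005 in untreated tumour, ranges that overlap. Of the 12, 1 fell after triple therapy, as did 15% of all genes.

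**Figure D5:**
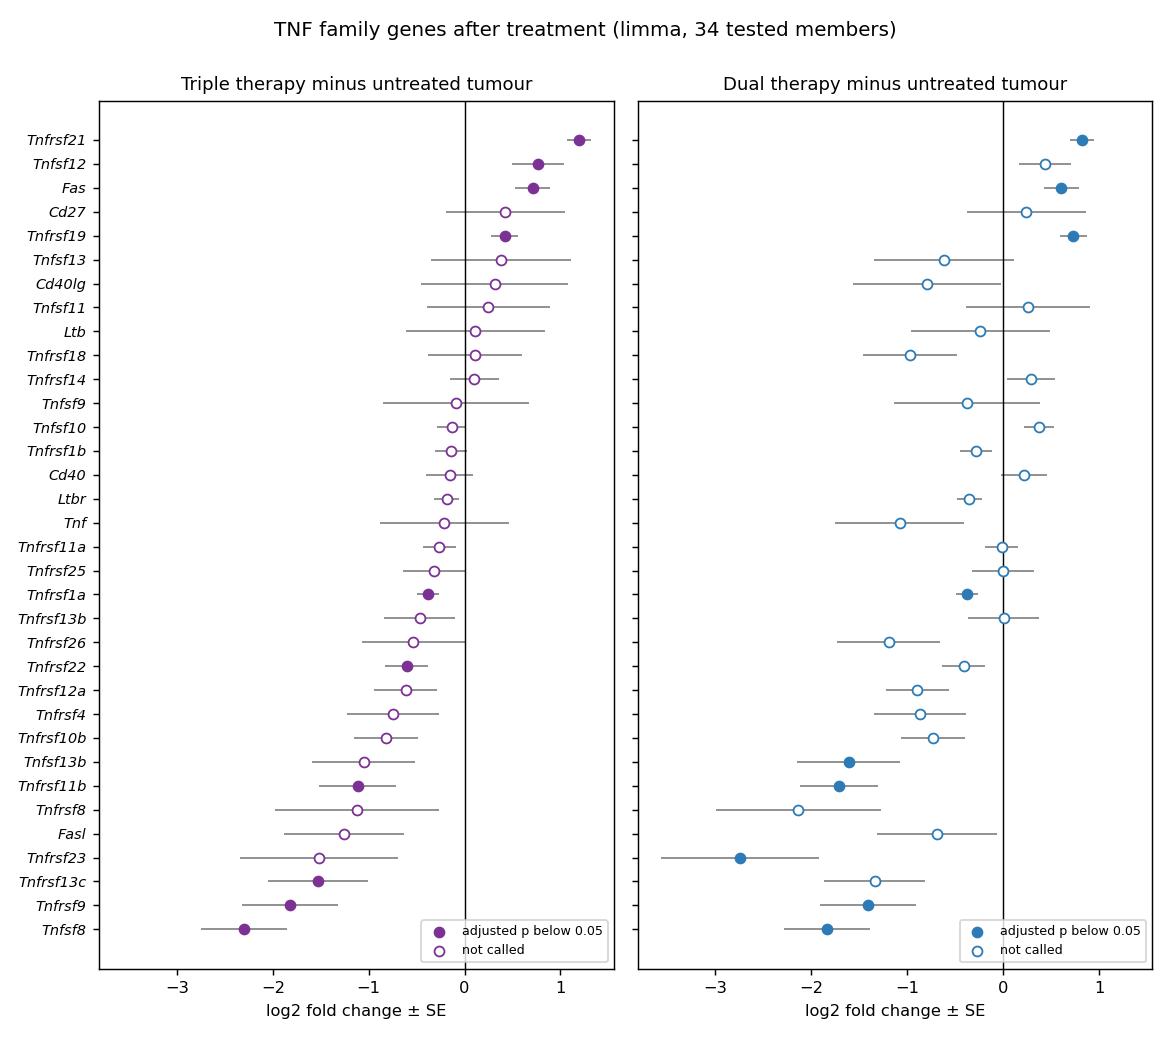
Log2 fold change ± SE of the 34 tested members after triple therapy (left) and dual therapy (right) against the same untreated tumour libraries; filled points have an adjusted p below 0.05. Tnfsf8 has the lowest value after triple therapy (-2.30) and Tnfrsf21 the highest in both panels (1.19 and 0.82).

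Triple therapy was compared with dual therapy to ask what the addition of anti-PD1 changed. No member was called in limma, where 0.869% of all genes were, 0.524% as rises and 0.346% as falls, and 4 of the 34 had an unadjusted p below 0.05, as had 14.5% of all genes. They were Tnfsf10, with scores of 1375, 1694 and 1053 after triple and 2248, 1712 and 1829 after dual therapy (log2 fold change -0.51 ± 0.16, adjusted p = 0.134, 95% interval -0.83 to -0.18), Tnfrsf21 (log2 fold change 0.37 ± 0.12, adjusted p = 0.166), Tnfrsf19 (log2 fold change -0.31 ± 0.14, adjusted p = 0.317) and Tnfrsf18 (log2 fold change 1.08 ± 0.49, adjusted p = 0.319). For Tnfrsf18 the scores were 27, 28 and 22 after triple and 19, 8 and 10 after dual therapy, without overlap, as was so for 9.27% of all genes with triple therapy higher and 9.4% with it lower. Endothelial identity scaling moved the median of all genes to 0.13 here. A missed threshold does not show that the groups act alike. For Tnfsf8 the difference was -0.46 ± 0.45 and for Tnfrsf9 -0.41 ± 0.50.

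Against sham microvessels, both treated groups still had many members called as higher and none called as lower. After triple therapy 16 of the 34 rose, where 5.49% of all genes rose and 4.24% fell, 9.73% in either direction. After dual therapy 17 rose, where 8.8% of all genes rose and 9.71% fell. Under endothelial identity scaling, which moved the median of all genes to 0.12 and the share of rises among all calls to 82.7%, against 56.5%, after triple therapy, 15 members rose in each. The 9 members that reached a score of 10 in no contralateral or sham library bear on these counts as well. All of them except Tnfrsf8 are among the risen after both therapies: Fasl, Tnfsf11, Ltb, Tnf, Cd40lg, Tnfsf9, Tnfrsf4 and Tnfrsf13c. That part of both counts follows from the filter. Tnfrsf9, risen after both therapies, also passed the filter only with tumour-region libraries. Tnfsf8 stayed far above sham after triple (log2 fold change 5.03 ± 0.45, adjusted p = 9.95e-07) and dual therapy (log2 fold change 5.49 ± 0.45, adjusted p = 2.57e-07), as did Tnfrsf9 after triple (log2 fold change 5.08 ± 0.50, adjusted p = 2.12e-06) and dual therapy (log2 fold change 5.50 ± 0.50, adjusted p = 5.35e-07). Tnfrsf21 and Fas were not called after triple therapy (adjusted p = 0.947 and 0.981), and their libraries overlapped those of sham microvessels. After dual therapy Tnfrsf21, at 552, 660 and 552, lay below every sham library, at 700, 791 and 741, without a call (log2 fold change -0.34 ± 0.12, adjusted p = 0.0644), with an adjusted p of 0.0232 to 0.204 over the alternatives, below 0.05 without, in turn, both libraries that stand apart (0.0232) or dual therapy replicate 2 (0.0392). Without dual therapy replicate 1, 2 other members were called as lower than sham, Tnfrsf23 (adjusted p of 0.0405 to 0.947 over the alternatives, 0.0405 there) and Tnfsf13 (0.024 to 0.683 over the alternatives, 0.024 there). Tnfrsf19 remained lower in all triple therapy libraries (log2 fold change -0.41 ± 0.14, adjusted p = 0.083) without a call, with an adjusted p of 0.00853 to 0.302 over the alternatives, below 0.05 with only the libraries compared (0.00853).

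Genes that act downstream of the receptors were taken as a list of 30, all of which were tested. In untreated tumour against contralateral microvessels 12 rose and 1 fell, with a median log2 fold change of 0.30, where 21.1% of all genes rose and 21.4% fell. The inhibitor gene Nfkbie rose by 2.05 ± 0.27 (adjusted p = 7.32e-06), the caspase-8 gene Casp8 by 0.57 ± 0.11 (adjusted p = 5.87e-04), the kinase gene Map3k14 by 0.98 ± 0.21 (adjusted p = 9.72e-04) and the adaptor gene Traf4 by 1.21 ± 0.26 (adjusted p = 1.09e-03) on the log2 scale. Nfkbia, which encodes the inhibitor of NF-kappa B known as I kappa B alpha, was the member that fell (-0.63 ± 0.17, adjusted p = 5.88e-03). After triple therapy 3 of the 30 rose and 2 fell against untreated tumour, where 17.2% of all genes rose and 15% fell. After dual therapy 2 rose and 1 fell, where 12.1% of all genes rose and 10.2% fell. Among 17 tested genes of endothelial activation, 11 rose and 1 fell in untreated tumour against contralateral microvessels, beside the 21.1% and 21.4% of all genes. Ccl5 (4.31 ± 0.46), Cxcl10 (4.52 ± 0.53) and Irf1 (1.56 ± 0.20) rose, and Cx3cl1 fell (-1.36 ± 0.18). After triple therapy 1 of the 17 rose and 3 fell against untreated tumour, beside the 17.2% and 15% of all genes.

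Markers of immune cells moved with the members that rose. In untreated tumour against contralateral microvessels 12 of 12 T and NK cell genes rose, and they summed to 741 to 1005 in untreated tumour, 64 to 159 in contralateral and 70 to 120 in sham microvessels. Of 5 B cell genes 3 rose, with sums of 71 to 123 in untreated tumour, 23 to 39 in contralateral and 17 to 30 in sham microvessels. Macrophage and monocyte markers rose in 8 cases of 10 and fell in 2, with sums of 8352 to 11209 in untreated tumour, 4315 to 4770 in contralateral and 3951 to 4263 in sham microvessels. Of 5 dendritic cell genes 3 rose and 1 fell, and of 7 microglia genes 3 rose and 2 fell. In that comparison 21.1% of all genes rose and 21.4% fell. Neutrophil genes summed to 9 to 20 after triple therapy, 21 to 56 after dual therapy, 96 to 221 in untreated tumour, 10 to 39 in contralateral and 2 to 14 in sham microvessels, and both that were tested, Retnlg and S100a9, rose in untreated tumour against contralateral microvessels. Proliferation genes summed to 1308 to 1655 after triple therapy, 917 to 1515 after dual therapy and 5181 to 11839 in untreated tumour, and all 5 rose in untreated tumour against contralateral microvessels. Of these 7 lists, the neutrophil gene Mmp8 was at 0 in all sham libraries, and no other marker was at 0 throughout a group. Their part in the values of the family was not tested.

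Over the 15 libraries, the protein-coding genes outside the family whose log2 values ran most like those of Tnf were Fcgr4 (r = 0.954), H2-Eb1 (0.954), Fgr (0.951), Cd74 (0.947) and C3 (0.944). For Cd40 they were Ctsw (0.958), Nfkbie (0.952), AB124611 (0.947), Gbp10 (0.944) and Gbp6 (0.938). For Tnfsf8, chosen after its values were seen, they were Socs3 (0.973), Runx1 (0.969), Tmem173 (0.964), Tgif1 (0.959) and Zfp217 (0.953). These are Pearson correlations over libraries that fall into 5 groups, and they are given as a description.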

How the data were processed

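Per the labels' protocols, total RNA of brain microvessels was purified with on-column DNase digestion, and 100 ng entered a stranded total RNA kit. The submitters' processing notes name STAR 2.4.0a, featureCounts 1.4.5-p1, DESeq2 and the build GRCm38 (mm10). The deposited values are a normalised score per gene: the authors' whole numbers fit reads multiplied by 1 factor per library and rounded, and 1 read was estimated here to be worth 0.656 to 1.86 units. The sources used here do not say whether strand was used in counting, and members that overlap a gene on the other strand are named as uncertain.

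Scores were transformed to log2(score + 1). The filter kept 19668 genes that reached 10 units in 3 or more libraries. The limma package (version 3.58.1, R 4.3.3) fitted 1 mean per group to all 15 libraries, with trend set to true. Two-sided p-values were adjusted by Benjamini-Hochberg across the fitted genes, separately in each of the 8 comparisons. The script was tested on simulated data. P-values measure the spread between pools of mice. Exon lengths came from GENCODE M21, which held all 40 members, 28 with the same coordinates as the table. All members may be named. Genes of the marker and signalling lists are named by smallest adjusted p, up to 4 a list. Nfkbia, Ptprb, Slc1a2, Gja1 and Gfap were named after their values were seen, and Cldn5, Pecam1 and Cdh5 as examples of their list. Members and lists were chosen with earlier results of these data known. The alternatives were another pseudocount, no filter, 2 other scalings, a replicate block, fewer libraries and leaving out each library.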

Additional observations from a re-analysis of the deposited data

How the results depend on the processing

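Of 101 member results called in the 8 comparisons, 71 were called under every alternative in which they were tested and 30 were lost under at least 1, while 33 others were called under at least 1 alternative. The number of members called moved by more than 1.5 times in the treatment comparisons only. For triple therapy against untreated tumour it was 10, and 6 with quantile normalisation. For dual therapy against untreated tumour it was 9, and 5 without both libraries that stand apart, untreated tumour replicate 2 and dual therapy replicate 2. Leaving out 1 library at a time gave 4 to 8 members for triple therapy against untreated tumour and 4 to 9 for dual therapy, 16 to 24 for untreated tumour against contralateral microvessels, 22 to 26 against sham and 3 to 3 for contralateral against sham microvessels. It gave 12 to 17 for triple and 14 to 17 for dual therapy against sham, and 0 to 0 for triple against dual therapy. The cause of these moves was not tested. Signs were compared only for member results called in the main fit or under at least 1 alternative. Among these the sign of 1 result turned: Tnfrsf23 in dual therapy against sham was -1.37, was 0.0765 without dual therapy replicate 2 and likewise 0.0765 without both libraries that stand apart, and ran from -2.40 to 0.0765 when 1 library was left out. Replicate numbers are shared without a stated pairing, and same-numbered libraries deviated together with r of -0.13 to 0.103 over the 8 comparisons. For untreated tumour and contralateral microvessels, both of mice given control IgG, these r were -0.055, 0.021 and 0.07. Differently numbered libraries reached 0.146, and the replicate block was not used in the main fit. With the block, 2 calls named above changed, Tnfrsf22 in triple therapy against untreated tumour being lost (0.0575) and Tnfrsf25 in untreated tumour against contralateral microvessels gained (0.0498), and no other. In all, 9 members were called in triple therapy against untreated tumour and 23 in untreated tumour against contralateral microvessels. Members near a score of 10 are limited by depth.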
